A study of Mus musculus with 9 samples.

Results

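Macrophages sorted from the mouse brain after stroke were compared with monocytes sorted from the blood of sham-operated mice. The comparison takes the 3 stroke brain libraries and the 3 sham blood libraries by their labels, 6 of the 9 RNA-seq libraries of the series, and describes which genes separated the 2 groups. All mice were male C57BL/6J, 9 weeks old. Stroke was induced by permanently closing the distal middle cerebral artery and the common carotid artery on the left side (dMCAO), and brains were taken 5 days later. The day on which sham blood was drawn is not named in the labels. The cells of both groups were sorted with one gate, CD11c-Ly6G-CD11b+CD45high, which keeps myeloid cells and leaves out neutrophils and CD11c+ dendritic cells at the protein level. Each brain library pooled the ipsilesional hemispheres of 5 mice, and each sham blood library came from 1 mouse. Mice were perfused through the heart with saline before the hemispheres were taken. Brain cells were freed with an enzymatic kit on a heated dissociator and a Percoll gradient, while blood cells passed a Ficoll gradient. The 3 remaining libraries, stroke blood, entered no test. Tissue of origin, surgery, perfusion and dissociation of the brain, and pooling changed together between the groups, so their parts in any difference cannot be told apart.

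Classical monocytes circulate with high *Ly6c2* and *Ccr2* and enter injured tissue, where they can become macrophages. The brain also holds macrophages of its own, the microglia of the parenchyma and the border-associated macrophages of the meninges, vessels and choroid plexus. A CD45high gate is commonly used to set infiltrating cells apart from resting microglia, although microglia can raise CD45 when activated.

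Libraries held 18475118 to 22623578 counts, so that 3 counts corresponded to 0.133 to 0.162 CPM (counts per 1e+06 counts of a library). Of 13020 genes tested, 1748 were differentially expressed genes (DEGs), defined by a log2 fold change above 1 or below -1 and a Benjamini-Hochberg adjusted p below 0.05 in edgeR's quasi-likelihood test. DEGs higher in brain numbered 1270 and DEGs lower in brain 478, which is 13.4% of the genes tested, 9.75% upward and 3.67% downward. The median log2 fold change over all genes tested was 0.01, and the 2 groups did not overlap in 41.7% of the genes tested. Without sham blood replicate 3 the count fell to 1146 DEGs, of which 277 were lower in brain, and without stroke brain replicate 2 there were 305 lower in brain. Principal component 1 held 84.3% of the variance of the 500 most variable genes and separated brain from blood. Sham blood replicate 1 stood apart from the other sham blood libraries on the second component, with a score of 32.6 against -13.1 and -16.6. Stroke brain replicate 1 stood apart on the third, with a score of 22.4 against -7.46 and -14.6. With both of these libraries left out, an alternative chosen after seeing the data, 2101 genes were DEGs, 1353 of them higher in brain.

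**Figure D1:**
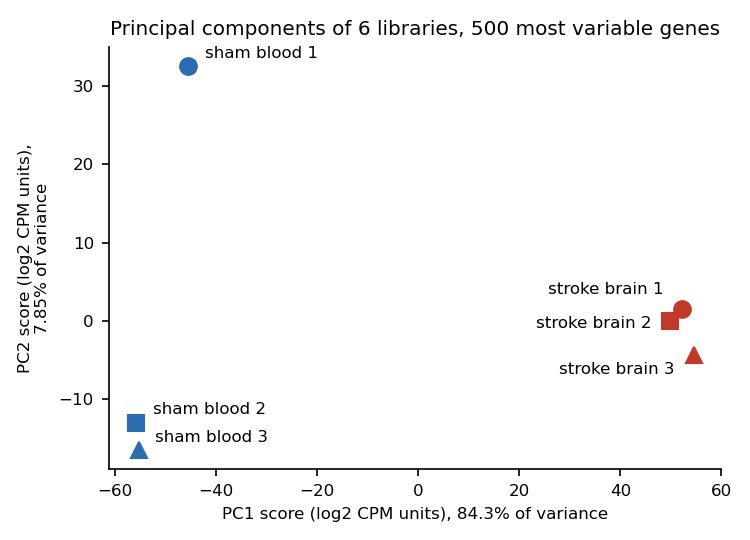
Scores of the 6 libraries on the first (84.3% of variance) and second (7.85%) principal components of log2 CPM, blue for sham blood and red for stroke brain, with 1 point per library. Brain libraries sit at the right and blood libraries at the left, and sham blood replicate 1 lies above the other blood libraries.

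The largest rises on the log2 scale, among DEGs with at least 10 counts in all 6 libraries, were those of *Spp1*, the complement genes *C1qa* and *C1qc*, and *Gpnmb*. *Spp1* (ENSMUSG00000029304, chr5:104435118-104441050, plus strand, GRCm38), which encodes the secreted phosphoprotein osteopontin, had 2.58, 2.26 and 5.79 CPM in sham blood and 3835, 1540.0 and 1768 CPM in brain. Every brain library was above every blood library, and edgeR gave a log2 fold change 9.27 ± 0.61 (SE), adjusted p = 0.000239, a 616-fold difference. Each SE here and below was derived by dividing the absolute log2 fold change by the square root of edgeR's F statistic. Such an SE is approximate, above all for genes near 0 in a group. *Gpnmb* (chr6:49036546-49070929, plus strand), a transmembrane glycoprotein of lipid-laden macrophages, had 0.778, 3.10 and 8.44 CPM in sham blood and 907, 527 and 791 CPM in brain (log2 fold change 7.38 ± 0.80 (SE), adjusted p = 0.00139). The other members of the leading 12 were *C1qa*, *C1qb*, *C1qc*, *Stab1*, *Rgs1*, *Tmem119*, *Basp1*, *Mmp14*, *Cxcl16* and *Cebpb*, with log2 fold changes from 5.52 to 8.15. Counted by CPM gained instead, the leading genes were *Apoe*, *H2-Ab1*, *Cd74*, *Ctsb*, *Fth1*, *H2-Aa*, *Dusp1*, *Fos*, *Junb*, *Ctsd*, *Spp1* and *H2-Eb1*.

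Some brain transcripts were nearly or wholly absent from sham blood. In 161 DEGs higher in brain, no sham blood library held more than 3 counts, and in 82 of them every sham blood library was at 0. *Slco2b1*, an organic anion transporter of microglia, had 0 CPM in every sham blood library and 67.1, 98.2 and 193 CPM in brain, at least 796-fold higher against the limit of 3 counts per library. *Olfml3*, a secreted protein of microglia, had 0, 0 and 0.0541 CPM in sham blood and 121, 185 and 365 CPM in brain. Sham blood held 1 count in all, and the ratio was 13728-fold (95% counting interval 2464 to 542260). The chemokine genes *Ccl22* (at least 268-fold higher) and *Ccl12*, the growth factors *Igf1* and *Gdf15*, the TGF-beta feedback gene *Pmepa1*, *Lhfpl2*, *Slc2a5*, *Flrt3* and the choroid plexus genes *Ttr* and *Enpp2* completed the 12 of these genes with the highest brain levels.

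**Figure D2:**
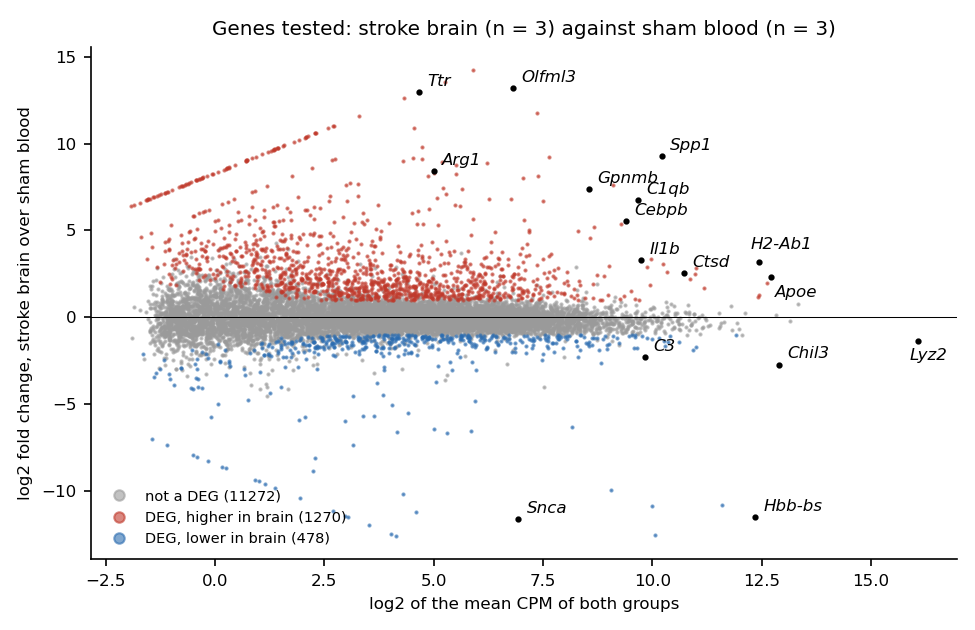
Each point is 1 of the 13020 genes tested, with the log2 of its mean CPM over both groups on the horizontal axis and its log2 fold change, brain over sham blood, on the vertical axis. DEGs higher in brain are red (1270), DEGs lower in brain blue (478), and the sloping line of red points holds genes with 0 counts in sham blood, whose fitted fold changes depend on the prior count.

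Reads do not carry a strand, so genes that share exon bases with a neighbor are uncertain to that extent. Among the DEGs described these include *Spp1*, *Stab1*, *Slco2b1*, *P2ry12*, *Gas6*, *Cebpb*, *Cebpd*, *Ctsd*, *Pltp*, *Ciita*, *Cxcl16*, *Il1b*, *Dusp1*, *Junb*, *Thbs1*, *Tgm2*, *Fn1* and *F13a1*.

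The sorted identity of the cells was checked on the gate's own genes and on markers of other cells. *Itgam* (CD11b) had 180.1, 165 and 194 CPM in sham blood and 157, 144 and 161 CPM in brain, and *Ptprc* (CD45) had 1137, 1212 and 1406 CPM in sham blood and 1194, 997 and 1112 CPM in brain. Neither was a DEG (log2 fold changes -0.34 ± 0.13 and -0.31 ± 0.14). *Ly6g* stayed at or below 0.65 CPM in all 6 libraries and was too low to test. *Itgax*, which encodes the CD11c that the gate leaves out, had 9.68, 13.2 and 10.9 CPM in sham blood and 141, 78.9 and 85.6 CPM in brain (log2 fold change 3.05 ± 0.26 (SE), adjusted p = 0.000541). *Spi1*, the transcription factor of the myeloid lineage, and *Csf1r*, the receptor of the macrophage growth factor, were abundant in both groups, with log2 fold changes of 0.00 ± 0.14 and 0.26 ± 0.16.

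Red cell and platelet transcripts marked the blood libraries and differed strongly among them. All 9 erythroid genes tested were DEGs lower in brain, and the list summed to 1270.0, 35570 and 31430 CPM in sham blood and 13.01, 20.3 and 21.6 CPM in brain. Sham blood replicate 1 therefore held far less erythroid RNA than the other blood libraries, yet every blood library lay above every brain library. Brains came from perfused mice, and the part of perfusion in this difference was not tested. *Hbb-bs*, a beta-globin gene, had 531, 15406 and 15525 CPM in sham blood and 2.29, 4.55 and 4.86 CPM in brain (log2 fold change -11.49 ± 1.43 (SE), adjusted p = 0.00252). It and *Hbb-bt* are near-identical copies, as are *Hba-a1* and *Hba-a2*, so the split of reads within each pair is uncertain. Among platelet genes 8 of 10 were lower in brain, and the list summed to 26.0, 538 and 776 CPM in sham blood and 49.3, 68.8 and 95.2 CPM in brain. Here sham blood replicate 1 lay below the brain libraries and the other blood libraries above them. That count ranged from 1 to 9 when 1 library at a time was left out. It was 1 without sham blood replicate 3, 2 without stroke brain replicate 2 or 3, 3 without sham blood replicate 2 and 5 without stroke brain replicate 1. *Pf4*, which both platelets and border-associated macrophages express, had 4.62, 80.9 and 134 CPM in sham blood and 35.0, 56.5 and 78.7 CPM in brain and was not a DEG.

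Lymphoid markers were present in both groups. B cell genes summed to 742, 1024 and 722 CPM in sham blood and 496, 466 and 744 CPM in brain, with overlap. T and NK cell genes summed to 315, 818 and 444 CPM in sham blood and 889.9, 1604 and 1725 CPM in brain, each brain library above each sham blood library. Of 8 B cell genes 6 were lower in brain, *Ms4a1* (CD20) with 20.7, 34.6 and 32.8 CPM in sham blood and 7.20, 4.55 and 8.98 CPM in brain (log2 fold change -2.21 ± 0.31 (SE), adjusted p = 0.00418), and the count was 1 without sham blood replicate 2 or 3, 2 without stroke brain replicate 2 and 3 without stroke brain replicate 1. *Ighm*, the most abundant B cell gene, overlapped between the groups. T and NK cell genes gave 2 DEGs of 12, *Nkg7* and *Prf1*, both cytotoxic granule genes higher in brain, and 0 without sham blood replicate 1, sham blood replicate 3, stroke brain replicate 2 or stroke brain replicate 3 (adjusted p from 0.0576 to 0.0934 for *Nkg7* and from 0.0995 to 0.125 for *Prf1*). Without sham blood replicate 2 the count was 5. Neutrophil genes gave 3 DEGs of 11, *Ngp* and *Camp* higher and *Mmp8* lower in brain (the call of *Camp* was lost without sham blood replicate 3 (adjusted p = 0.0507)), and the list summed to 1039, 1307 and 3801 CPM in sham blood and 1411, 1230.0 and 1895 CPM in brain, the groups overlapping and sham blood replicate 3 the highest. Without sham blood replicate 1, 3 neutrophil genes were higher and 2 lower. Of all genes tested, 9.75% were called higher in brain and 3.67% lower, and the small T and NK cell and neutrophil counts are not read as results about those lists. No neuronal gene had enough counts to test, and the 8 neuronal genes summed to 0.509 CPM at most in a brain library and 1.89 CPM at most in a sham blood library. Astrocyte genes gave 4 DEGs of 5 tested, all higher in brain, with sums of 19.5, 25.3 and 34.0 CPM in brain and 6.47, 7.24 and 7.31 CPM in sham blood. The count was 3 in each fit without 1 library, and *Gfap*, *Aqp4* and *S100b* of the same list were too low to test. Of 5 oligodendrocyte genes tested 2 rose, a count of 1 without sham blood replicate 2 or 3 or stroke brain replicate 2 or 3, and the sums overlapped (366, 442 and 294 CPM in sham blood and 316, 291 and 276 CPM in brain). Of the 8 listed genes 4 or 5 had 0 counts in each sham blood library and 2 or 3 in each brain library, so the sums rest on few genes. *Mog*, *Olig1* and *Cldn11* were too low to test. Of 5 endothelial genes tested *Kdr* and *Ly6a* rose, 2 had log2 fold changes below 0, and the median was 0.21. *Cldn5*, *Cdh5* and *Tek* of the same list were too low to test. Choroid plexus epithelial genes summed to 255, 32.6 and 112 CPM in brain against 0.0486 CPM at most in sham blood, with *Ttr*, the thyroid hormone carrier, at 93.8, 14.8 and 43.7 CPM. Stroke brain replicate 1 was the highest in *Ttr* and *Enpp2*, and replicate 2 the lowest. In bulk libraries a larger share of such cells and more of their RNA per cell cannot be told apart, and the part of these cells in the differences below was not tested.

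**Figure D3:**
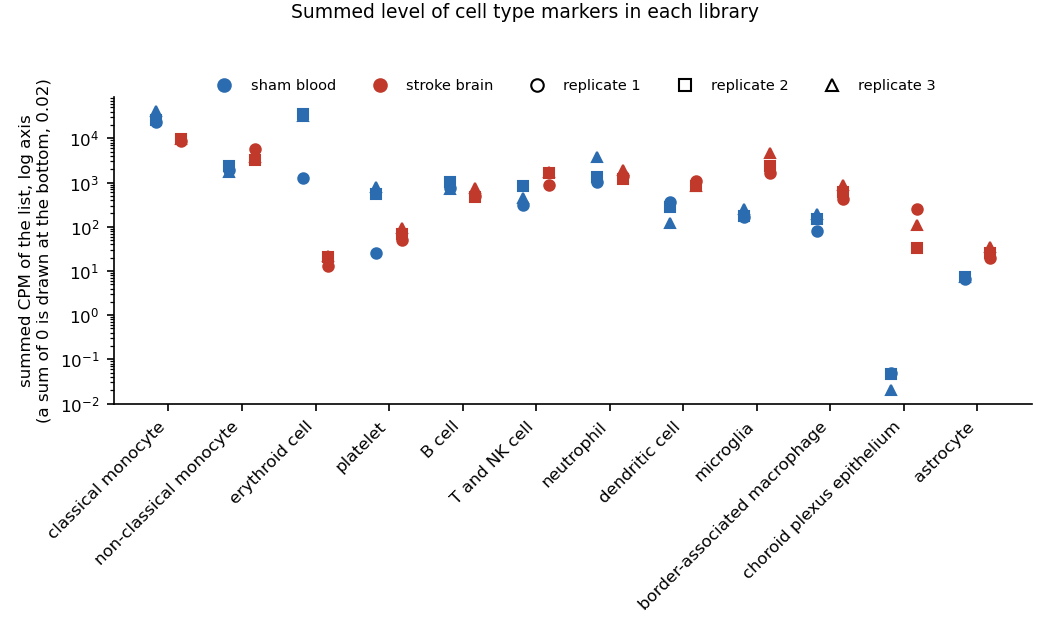
Summed CPM of each marker list in each library on a log axis, blue for sham blood and red for brain, with the marker shape giving the replicate. Sham blood replicate 1 (circle) lies far below the other blood libraries for erythroid (1270 CPM) and platelet (26.0 CPM) genes, and microglia and choroid plexus genes are higher in all 3 brain libraries.

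Transcripts of circulating classical monocytes were lower in the brain. Of 14 classical monocyte genes 10 were DEGs lower in brain and none was higher, with a median log2 fold change of -1.55, and the count ranged from 8 to 10 with 1 library left out. *Ly6c2*, which encodes the surface protein that defines classical monocytes, had 2382, 2113 and 2146 CPM in sham blood and 984, 925 and 772 CPM in brain (log2 fold change -1.43 ± 0.15 (SE), adjusted p = 0.00108). It was lower in every brain library than in any blood library, with close replicates. *Chil3*, a chitinase-like protein, had 6500.3, 10107 and 22681 CPM in sham blood and 1504, 2455 and 2569.6 CPM in brain, with sham blood replicate 3 the highest (log2 fold change -2.71 ± 0.47 (SE), adjusted p = 0.00824). The transglutaminase gene *F13a1* (-1.71 ± 0.19), the fibronectin gene *Fn1* (-1.87 ± 0.31), *Mgst1* (-1.84 ± 0.16) and *Hp* (-1.67 ± 0.24) fell by edgeR as well (values are log2 fold changes ± SE). *Ccr2*, the chemokine receptor that draws monocytes into tissue, had 1779, 1552 and 2343 CPM in sham blood and 1186, 1343 and 1263 CPM in brain, and its log2 fold change of -0.71 ± 0.18 (adjusted p = 0.0333) did not reach the fold threshold. *Lyz2*, lysozyme, lost the most CPM of all genes, with 115640, 94196 and 79523 CPM in sham blood and 38689, 41178 and 42806 CPM in brain (log2 fold change -1.36 ± 0.19 (SE), adjusted p = 0.00396).

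Non-classical monocyte genes did not fall together. Of 12 genes tested, 2 were DEGs higher in brain and 10 were not DEGs, with a median log2 fold change of 0.26, and the count was 1 or 0 without sham blood replicate 1, sham blood replicate 3 (0), stroke brain replicate 2 or stroke brain replicate 3. Over all genes tested 9.75% were called higher, so a count this small is not read as a rise of the list. *Nr4a1*, the nuclear receptor that non-classical monocytes need, had 251, 237 and 124 CPM in sham blood and 3400.0, 735 and 917 CPM in brain (log2 fold change 2.91 ± 0.60 (SE), adjusted p = 0.015), and it also belongs to the immediate early genes below. The call was lost without sham blood replicate 2 (adjusted p = 0.0523) or sham blood replicate 3 (adjusted p = 0.0611). *Cx3cr1*, the fractalkine receptor shared with microglia, had 271, 461 and 261 CPM in sham blood and 407, 904 and 1105 CPM in brain, overlapped between the groups and was not a DEG (log2 fold change 1.17 ± 0.38 (SE), adjusted p = 0.0654), although it was called without stroke brain replicate 1 (adjusted p = 0.0131).

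Every microglial gene examined was higher in the brain libraries. All 12 were tested and all 12 were DEGs, with a median log2 fold change of 6.52 when genes at 0 in sham blood were set at their bound, and 11 or 12 remained DEGs in each fit without 1 library. *Tmem119*, a microglial surface protein, had 2.24, 3.48 and 3.79 CPM in sham blood and 181, 313 and 590.4 CPM in brain (log2 fold change 6.72 ± 0.52 (SE), adjusted p = 0.000414). *P2ry12*, the ADP receptor of resting microglia, had 6.71, 19.5 and 37.0 CPM in sham blood and 141, 203 and 467 CPM in brain (log2 fold change 3.57 ± 0.68 (SE), adjusted p = 0.0115). *Sall1*, the transcription factor that sets microglial identity, had 0 CPM in every sham blood library and 7.30, 6.63 and 21.8 CPM in brain, at least 79.6-fold higher. Stroke brain replicate 3 was the highest library for these 3 genes, and the list summed to 1622, 2375 and 4576 CPM in the brain libraries against 166, 178 and 248 in sham blood.

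Genes of border-associated macrophages moved in the same direction in most cases. Of 11 tested, 9 were DEGs higher in brain, a count that ranged from 5 to 10 with 1 library left out (5 without stroke brain replicate 3). *Stab1*, a scavenger receptor for exposed phosphatidylserine, had 0.973, 1.27 and 1.46 CPM in sham blood and 135, 124 and 198 CPM in brain (log2 fold change 6.83 ± 0.29 (SE), adjusted p = 0.000141). *Mrc1*, the mannose receptor, had 10.9, 8.22 and 2.54 CPM in sham blood and 32.4, 67.5 and 91.0 CPM in brain (log2 fold change 3.02 ± 0.57 (SE), adjusted p = 0.0108). *Cd163*, the receptor for hemoglobin bound to haptoglobin, had 4.48, 2.16 and 2.17 CPM in sham blood and 7.04, 18.1 and 21.3 CPM in brain (log2 fold change 2.28 ± 0.50 (SE), adjusted p = 0.0184), a call lost without sham blood replicate 2 (adjusted p = 0.0667), sham blood replicate 3 (adjusted p = 0.0706), stroke brain replicate 2 (adjusted p = 0.0597) or stroke brain replicate 3 (adjusted p = 0.0619). Stroke brain replicate 1 was the lowest brain library for *Mrc1* and *Cd163*, and *Lyve1*, a hyaluronan receptor too low to test, was at 0.213, 5.66 and 13.9 CPM in the 3 brain libraries.

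Transcription factors divided into both directions. Of 34 tested, 11 were DEGs higher in brain and 5 lower. *Cebpb* (chr2:167688915-167690418, plus strand), a factor of macrophage activation, had 28.9, 33.4 and 17.5 CPM in sham blood and 957, 1556 and 1455 CPM in brain (log2 fold change 5.52 ± 0.33 (SE), adjusted p = 0.00022), while its relative *Cebpd* had 200.2, 202 and 215 CPM in sham blood and 54.0, 87.4 and 73.3 CPM in brain (log2 fold change -1.64 ± 0.20 (SE), adjusted p = 0.0022). The paralogs thus moved in opposite directions, in both cases with no overlap between the groups. Also higher were *Bhlhe40* (3.64 ± 0.32), *Runx3* (1.28 ± 0.19) and the lipid-sensing receptors *Pparg* (1.92 ± 0.39) and *Nr1h3* (1.71 ± 0.34). The calls of *Pparg* and *Nr1h3* were lost without sham blood replicate 3 (adjusted p = 0.0591 and 0.0537). Lower by edgeR were *Tfec* (-1.27 ± 0.23), *Cebpa* (-1.38 ± 0.35), *Id1* (-1.08 ± 0.31) and *Klf2* (-1.99 ± 0.55), a factor of quiescent blood cells. The call of *Id1* was lost without any of the 6 libraries (adjusted p from 0.0539 to 0.133), and those of *Cebpa* (0.0812 to 0.094) and *Klf2* (0.103 to 0.123) without the 4 libraries named next. The number lower ranged from 2 to 5 without 1 library, with 2 when sham blood replicate 2, sham blood replicate 3, stroke brain replicate 2 or stroke brain replicate 3 was left out. *Irf8*, a factor of the monocyte lineage, was not a DEG (0.11 ± 0.19).

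Genes of lipid handling and of macrophages at sites of damage rose in part. Of 18, 11 were DEGs higher in brain and none was lower, with a median log2 fold change of 1.62. *Apoe*, the lipid carrier of the brain, had 2401, 2147 and 1616 CPM in sham blood and 8618, 11120 and 14463 CPM in brain (log2 fold change 2.35 ± 0.25 (SE), adjusted p = 0.00125) and gained the most CPM of all genes. *Cd63*, a tetraspanin of late endosomes, had 5.06, 6.72 and 13.9 CPM in sham blood and 228, 237 and 385 CPM in brain (log2 fold change 4.93 ± 0.44 (SE), adjusted p = 0.000682). The lipid droplet gene *Plin2* (1.51 ± 0.25), the fatty acid carrier *Fabp5* (1.70 ± 0.21), the cystatin *Cst7* (2.12 ± 0.28) and the receptor *Axl* (2.40 ± 0.39) rose by less. *Lgals3*, often used as a marker of activated macrophages, had 2078, 1910.3 and 2089 CPM in sham blood and 2069.9, 2360.4 and 2084 CPM in brain, and its log2 fold change was -0.02 ± 0.13. *Trem2*, the lipid-sensing receptor, had 29.7, 62.7 and 101 CPM in sham blood and 133, 189.8 and 292 CPM in brain and passed narrowly (log2 fold change 1.55 ± 0.45 (SE), adjusted p = 0.0487), with the call lost without sham blood replicate 1 (adjusted p = 0.0739), sham blood replicate 2 (adjusted p = 0.131), stroke brain replicate 2 (adjusted p = 0.103) or stroke brain replicate 3 (adjusted p = 0.149).

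Of 22 genes of cholesterol handling and of the liver X receptor pathway 7 were DEGs, all higher in brain: *Abca1* (3.14 ± 0.29) and *Abcg1* (1.27 ± 0.22), which pump cholesterol out of the cell, *Nr1h3*, *Mylip*, *Apoe*, *Pltp* and *Ch25h*. *Abca1* had 7.69, 8.97 and 6.12 CPM in sham blood and 53.9, 62.5 and 101 CPM in brain (adjusted p = 0.000772, edgeR). The call of *Mylip* was lost without sham blood replicate 1 (adjusted p = 0.0503), sham blood replicate 2 (adjusted p = 0.0551), sham blood replicate 3 (adjusted p = 0.0512) or stroke brain replicate 3 (log2 fold change 0.95, adjusted p = 0.0691), and that of *Nr1h3* without sham blood replicate 3 (adjusted p = 0.0537). *Sqle*, a gene of cholesterol synthesis, was not a DEG (0.80 ± 0.22).

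Among 30 lysosomal genes, 7 were DEGs higher in brain and none was lower. Those were the cathepsin genes *Ctsb*, *Ctsd*, *Ctsf*, *Ctsk* and *Ctsl*, the asparaginyl endopeptidase *Lgmn*, and *Atp6v0d2*, a proton pump subunit. *Ctsd*, which encodes an aspartic protease, had 427, 478 and 477 CPM in sham blood and 2545, 2498 and 3742 CPM in brain (log2 fold change 2.55 ± 0.20 (SE), adjusted p = 0.000417). *Ctsk* had 0.243, 0 and 0.325 CPM in sham blood and 5.33, 128 and 139 CPM in brain, so stroke brain replicate 1 held far less than the other brain libraries (log2 fold change 8.79 ± 1.45 (SE), adjusted p = 0.0067). The call of *Ctsf* was lost without sham blood replicate 3 (adjusted p = 0.0511), and that of *Ctsl* without sham blood replicate 2 (adjusted p = 0.0661) or stroke brain replicate 3 (adjusted p = 0.0619). The remaining members had log2 fold changes within 1 of 0, for example *Ctss* (0.27 ± 0.19), *Lipa* (0.28 ± 0.19) and *Cd68* (0.61 ± 0.15, adjusted p = 0.0253 by edgeR). *Lamp1*, a membrane protein of lysosomes, had 191, 1390.1 and 799.6 CPM in sham blood and 1137, 1181 and 1242 CPM in brain, with sham blood replicate 1 far below the other sham blood libraries.

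The genes of complement component C1q were the clearest of the complement system. *C1qa*, *C1qb* and *C1qc* lie next to each other on mouse chromosome 4, the group spanning chr4:136880129-136898803, and encode the chains of the molecule that starts the classical pathway. *C1qa* had 1.12, 0.752 and 1.35 CPM in sham blood and 233, 269 and 492 CPM in brain (log2 fold change 8.15 ± 0.43 (SE), adjusted p = 0.000141). *C1qb* had 10.8, 10.5 and 20.3 CPM in sham blood and 949.8, 1540.5 and 2397 CPM in brain (log2 fold change 6.76 ± 0.49 (SE), adjusted p = 0.000317). *C1qc* had 5.74, 3.57 and 5.85 CPM in sham blood and 598, 987 and 1692 CPM in brain (log2 fold change 7.64 ± 0.50 (SE), adjusted p = 0.000239). All brain libraries were above all blood libraries, and replicate 3 was the highest brain library for each. The anaphylatoxin receptors *C3ar1* (5.03 ± 0.30) and *C5ar1* (2.08 ± 0.29) rose too. *C3*, the central component, moved the other way, with 1357, 1449 and 1645 CPM in sham blood and 506, 225 and 279 CPM in brain (log2 fold change -2.27 ± 0.29 (SE), adjusted p = 0.00291), and was the 1 complement gene of 14 that fell beside 6 that rose.

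The genes of apoptotic cell clearance that the study listed gave 16 DEGs higher and 1 lower in brain of 33 tested. The study chose this list on the same brain libraries, so the count is not independent evidence of its direction. Its own calls used DESeq2 and set brain against blood taken after dMCAO, not against sham blood. On that other contrast the study reported *Rac1* as higher in brain. Receptors for exposed phosphatidylserine and its bridging proteins included *Mertk*, a kinase receptor with 0.778, 0.376 and 0.758 CPM in sham blood and 34.2, 42.5 and 70.2 CPM in brain (log2 fold change 6.14 ± 0.43 (SE), adjusted p = 0.00029), and *Itgb5*, an integrin chain with 13.1, 26.8 and 20.1 CPM in sham blood and 509.8, 924 and 935 CPM in brain (log2 fold change 5.19 ± 0.37 (SE), adjusted p = 0.000292). *Gas6*, the bridge between phosphatidylserine and *Mertk* or *Axl*, had 0.292, 0 and 0.108 CPM in sham blood and 36.0, 72.3 and 112 CPM in brain (log2 fold change 8.93 ± 0.76 (SE), adjusted p = 0.000541). *Mfge8*, another bridging protein, had 38.2, 29.8 and 20.1 CPM in sham blood and 23.1, 17.0 and 22.8 CPM in brain, overlapped and was not a DEG. *Cd14* had 222, 176 and 97.1 CPM in sham blood and 2646, 1614 and 1264 CPM in brain (log2 fold change 3.36 ± 0.38 (SE), adjusted p = 0.00171), and *Cd36* and *Havcr2* rose by 2.36 ± 0.26 and 2.48 ± 0.22 (log2 fold change ± SE). The gene that fell was *Fpr2* (log2 fold change -2.02 ± 0.30 (SE), adjusted p = 0.00489). Of the engulfment genes *Abca1* rose, with the values given above, while *Rhoa* (-0.39 ± 0.14) and *Elmo1* (0.56 ± 0.15) were not DEGs. *Rac1* had 70.7, 759.8 and 396 CPM in sham blood and 632, 629 and 649 CPM in brain and was not a DEG (log2 fold change 0.53 ± 0.65 (SE), adjusted p = 0.6). Sham blood replicate 1 was again far below the other sham blood libraries, though not far below stroke blood, whose values are given at the end.

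Genes of the MHC class II molecules I-A and I-E, which present peptides to helper T cells, were higher in brain. Of 16 genes in the list 10 were DEGs higher in brain and none was lower, and the count was 10 in each of the 6 fits without 1 library. Class II promoters share conserved elements, the X box and the Y box, through which the coactivator encoded by *Ciita* acts. The 160 bases before the annotated start of 6 class II genes are printed 5' to 3' from RefSeq (GRCm38.p6) to show which windows hold the X core (CTNNNAAC) and the Y core (TGATTGG) on either strand, in capitals where they match.
H2-Aa (chr17:34287824-34287983, minus strand): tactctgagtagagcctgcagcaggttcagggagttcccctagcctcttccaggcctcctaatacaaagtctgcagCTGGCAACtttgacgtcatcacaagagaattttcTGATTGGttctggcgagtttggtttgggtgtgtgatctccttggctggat
H2-Eb1 (chr17:34305707-34305866, plus strand): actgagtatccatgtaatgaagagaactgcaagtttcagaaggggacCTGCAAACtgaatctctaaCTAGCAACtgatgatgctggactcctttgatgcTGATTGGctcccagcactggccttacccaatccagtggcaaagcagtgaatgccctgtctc
H2-DMb1 (chr17:34153031-34153190, plus strand): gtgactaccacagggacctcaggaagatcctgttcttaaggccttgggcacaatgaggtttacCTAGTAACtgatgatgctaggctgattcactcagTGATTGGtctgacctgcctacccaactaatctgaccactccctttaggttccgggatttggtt
H2-DMb2 (chr17:34145089-34145248, plus strand): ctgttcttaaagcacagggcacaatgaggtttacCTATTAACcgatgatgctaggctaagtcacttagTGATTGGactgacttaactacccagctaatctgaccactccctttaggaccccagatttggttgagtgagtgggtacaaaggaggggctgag
H2-Oa (chr17:34092219-34092378, plus strand): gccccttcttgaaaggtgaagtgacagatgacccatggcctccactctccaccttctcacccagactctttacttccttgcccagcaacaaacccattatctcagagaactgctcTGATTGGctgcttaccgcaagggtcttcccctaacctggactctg
H2-DMa (chr17:34122672-34122831, plus strand): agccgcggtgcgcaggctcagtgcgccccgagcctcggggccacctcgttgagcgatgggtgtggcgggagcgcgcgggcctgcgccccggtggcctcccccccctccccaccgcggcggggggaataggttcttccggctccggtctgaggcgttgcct
Of all 32851 promoter windows of this length, 23.8% held the X core, 5.93% the Y core and 1.46% both. Both cores stood in the windows of *H2-Aa*, *H2-Eb1*, *H2-DMb1* and *H2-DMb2*, the Y core alone in that of *H2-Oa*, and neither in the *H2-DMa* window shown, 1 of 2 for that gene. The motifs were chosen after the values were seen, and a match is a description of the letters only.

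The measured levels of these genes differed in size. *H2-Ab1* (chr17:34263209-34269418, plus strand), the I-A beta chain, had 1394, 933 and 699.9 CPM in sham blood and 11051, 11004 and 8458 CPM in brain (log2 fold change 3.21 ± 0.28 (SE), adjusted p = 0.000599). Its partner *H2-Aa* had 641, 434 and 339 CPM in sham blood and 3749.5, 3939 and 3169 CPM in brain (log2 fold change 2.82 ± 0.25 (SE), adjusted p = 0.000682), and *H2-Eb1* had 295, 233 and 196 CPM in sham blood and 2254, 2316 and 1959.7 CPM in brain (log2 fold change 3.05 ± 0.19 (SE), adjusted p = 0.000223). In all 3 the lowest brain library was more than 4 times the highest blood library. *Cd74*, the invariant chain that guides class II molecules, had 3545, 2146 and 1464 CPM in sham blood and 13731, 8812 and 8324 CPM in brain (log2 fold change 1.98 ± 0.35 (SE), adjusted p = 0.00834). *Ciita* had 23.1, 28.0 and 32.2 CPM in sham blood and 140.2, 118 and 89.9 CPM in brain (log2 fold change 1.94 ± 0.21 (SE), adjusted p = 0.00137). The peptide-loading genes were uneven: *H2-DMb1* rose (log2 fold change 1.92 ± 0.15 (SE), adjusted p = 0.000451), whereas *H2-DMa* (0.29 ± 0.15) and *H2-DMb2* (0.71 ± 0.26) were not DEGs. The costimulatory genes *Cd86* (1.49 ± 0.18) and *Cd80* (1.86 ± 0.35) and the inhibitory ligand gene *Cd274* (2.74 ± 0.30) were DEGs higher in brain, and *Cd40* (0.84 ± 0.23) was not a DEG. Of 12 dendritic cell genes 7 were also higher in brain, among them *Zbtb46* (0.292, 2.73 and 0.758 CPM in sham blood and 28.6, 22.3 and 19.8 CPM in brain), *Ccr7* and *Ccl22*, while *Flt3* (0.86 ± 0.23) was not a DEG. The call of *Ccr7* was lost without sham blood replicate 3 (adjusted p = 0.0629). How much of the class II difference those cells carried was not tested.

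**Figure D4:**
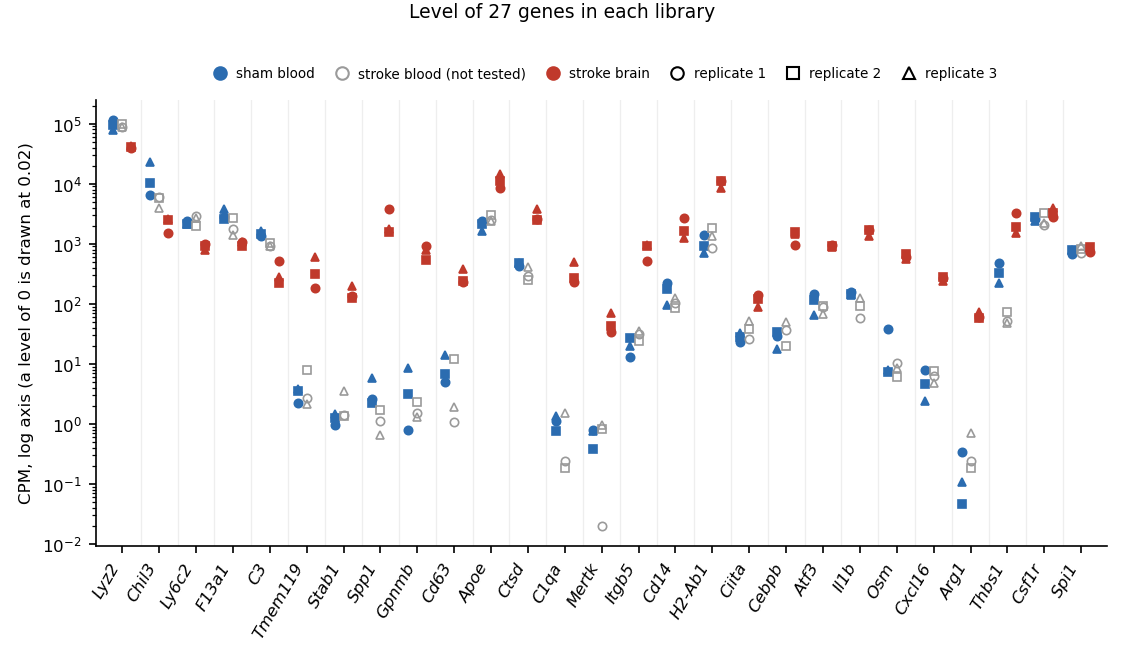
CPM of 27 genes in each library on a log axis, blue for sham blood, open gray for stroke blood (not tested) and red for stroke brain. From left to right, monocyte genes and *C3* are lower in brain, *Tmem119* to *Thbs1* are higher, and *Csf1r* and *Spi1* lie close together in all libraries.

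Chemokine ligands were among the groups with the highest share of DEGs. Of 18 tested, 15 rose in brain and 1 fell, with a median log2 fold change of 3.41, and 11 to 15 rose in the fits without 1 library. The summed CPM of the list overlapped between the groups (5197, 4159 and 2976 in sham blood and 3690, 5110 and 5074 in brain). *Ccl2*, a ligand of CCR2 that recruits monocytes, had 23.2, 9.82 and 6.44 CPM in sham blood and 140.1, 355 and 304 CPM in brain (log2 fold change 4.22 ± 0.57 (SE), adjusted p = 0.00338). *Ccl7*, another CCR2 ligand, had 0.827, 0 and 0 CPM in sham blood and 84.1, 187 and 177 CPM in brain (log2 fold change 8.91 ± 0.93 (SE), adjusted p = 0.00124). *Cxcl16*, a membrane-bound chemokine, had 7.78, 4.56 and 2.38 CPM in sham blood and 273, 277 and 235 CPM in brain (log2 fold change 5.61 ± 0.42 (SE), adjusted p = 0.000343). *Ccl4*, an inflammatory chemokine, had 57.6, 16.9 and 13.04 CPM in sham blood and 387, 307 and 418 CPM in brain (log2 fold change 3.54 ± 0.56 (SE), adjusted p = 0.00592), and sham blood replicate 1 was the highest blood library. *Ccl9* was the 1 ligand that fell (log2 fold change -1.18 ± 0.20 (SE), adjusted p = 0.00753), a call lost without sham blood replicate 1 (log2 fold change -0.99, adjusted p = 0.012), and *Ccl6*, abundant in both groups, was not a DEG (-0.53 ± 0.26). Of 11 chemokine receptors 4 rose, among them *Ccr7*, *Ccrl2* and *Cxcr4*, a count of 1 without sham blood replicate 2 or 3 and of 2 without stroke brain replicate 3. The call of *Ccrl2* was lost without sham blood replicate 2 (adjusted p = 0.066) or sham blood replicate 3 (adjusted p = 0.0538), that of *Ccr7* without sham blood replicate 3 (adjusted p = 0.0629), and that of *Cxcr4* without sham blood replicate 1 (adjusted p = 0.12), sham blood replicate 2 (adjusted p = 0.126), sham blood replicate 3 (adjusted p = 0.125), stroke brain replicate 1 (log2 fold change 0.80, adjusted p = 0.0308) or stroke brain replicate 3 (adjusted p = 0.0538).

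Cytokine genes gave 9 DEGs higher in brain and none lower of 21. *Il1b*, the main inflammatory interleukin of myeloid cells, had 155, 145 and 139 CPM in sham blood and 1707, 1665 and 1340.3 CPM in brain (log2 fold change 3.30 ± 0.15 (SE), adjusted p = 0.000141), and the interleukin 1 receptor antagonist gene *Il1rn* had 29.4, 19.2 and 22.4 CPM in sham blood and 233, 258 and 228 CPM in brain (log2 fold change 3.22 ± 0.20 (SE), adjusted p = 0.000223). Both genes were higher in every brain library than in any sham blood library, with close replicates. *Osm*, oncostatin M, had 38.2, 7.33 and 7.90 CPM in sham blood and 590.2, 683 and 562 CPM in brain (log2 fold change 4.97 ± 0.69 (SE), adjusted p = 0.00378). *Il10*, an inhibitory cytokine, was low, with 0.0486, 0 and 0.0541 CPM in sham blood and 1.87, 2.12 and 1.94 CPM in brain (log2 fold change 5.54 ± 0.73 (SE), adjusted p = 0.00316). *Tnf* had 27.4, 1.69 and 2.22 CPM in sham blood and 23.4, 16.3 and 15.7 CPM in brain, so sham blood replicate 1 lay above all brain libraries, and the gene was not a DEG (log2 fold change 0.68 ± 0.94 (SE), adjusted p = 0.647) although it was called without sham blood replicate 1 (adjusted p = 0.00252). *Tnfrsf1b*, a receptor for TNF, was not a DEG (-0.20 ± 0.16). In the list of NF-kappaB genes, 5 of 18 rose, among them the inhibitors *Tnfaip3* (3.55 ± 0.34), *Nfkbid* (2.82 ± 0.29) and *Nfkbiz* (2.49 ± 0.50), while the subunit genes *Rel* (1.07 ± 0.46) and *Rela* (0.51 ± 0.22) were not DEGs. The count was 3 without sham blood replicate 2, where the adjusted p of *Nfkbiz* was 0.0567.

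Immediate early genes, which cells induce within minutes of a stimulus, were higher in brain in 16 of 24 cases and lower in none. Enzymatic dissociation with warming is known to induce these genes, only brain cells went through it, and no brain of a sham-operated mouse is part of this comparison, so that step and the tissue cannot be told apart here. The count ranged from 10 to 19 with 1 library left out (10 without sham blood replicate 3). *Fos*, a subunit of AP-1, had 1408, 1016 and 645 CPM in sham blood and 2018, 4246 and 4521 CPM in brain (log2 fold change 1.70 ± 0.38 (SE), adjusted p = 0.0191), a call lost without sham blood replicate 2 (adjusted p = 0.0662), sham blood replicate 3 (adjusted p = 0.061), stroke brain replicate 2 (adjusted p = 0.0635) or stroke brain replicate 3 (adjusted p = 0.0644). *Dusp1*, a phosphatase that ends MAP kinase signals, had 842, 509 and 364 CPM in sham blood and 2888, 3762 and 3746 CPM in brain (log2 fold change 2.48 ± 0.31 (SE), adjusted p = 0.00271), and *Atf3*, a stress-induced repressor, had 144, 114 and 65.5 CPM in sham blood and 967, 902 and 888 CPM in brain (log2 fold change 2.97 ± 0.28 (SE), adjusted p = 0.000786). *Egr1* had 179.5, 11.6 and 7.36 CPM in sham blood and 356, 583 and 709.6 CPM in brain. Sham blood replicate 1 was more than 15 times the other sham blood libraries, and *Egr1* was not a DEG (log2 fold change 2.92 ± 1.12 (SE), adjusted p = 0.107) but was called without sham blood replicate 1 (adjusted p = 0.00065). Heat shock genes, which warming or protein damage can also induce, gave no DEG among 13 tested by edgeR, with 3 higher and 0 lower at an unadjusted p below 0.05 and 1 higher by DESeq2. *Hspa8*, a constitutive chaperone, had a log2 fold change of -0.45 ± 0.29.

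The 160 bases before the start of 3 of these genes are given because each holds the core of a cAMP response element, TGACGT on either strand, in capitals, a sequence that 5.32% of all windows held. The genes were picked for display, and the share among the other immediate early genes was not counted. The matches therefore measure no enrichment.
Fos (chr12:85473730-85473889, plus strand): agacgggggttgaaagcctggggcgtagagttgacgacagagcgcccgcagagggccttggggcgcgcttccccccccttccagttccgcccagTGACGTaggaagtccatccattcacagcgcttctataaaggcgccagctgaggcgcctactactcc
Dusp1 (chr17:26508473-26508632, minus strand): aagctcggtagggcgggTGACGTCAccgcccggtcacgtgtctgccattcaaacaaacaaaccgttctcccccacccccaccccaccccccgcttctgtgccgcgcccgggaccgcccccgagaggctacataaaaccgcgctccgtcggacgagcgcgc
Atf3 (chr1:191183334-191183493, minus strand): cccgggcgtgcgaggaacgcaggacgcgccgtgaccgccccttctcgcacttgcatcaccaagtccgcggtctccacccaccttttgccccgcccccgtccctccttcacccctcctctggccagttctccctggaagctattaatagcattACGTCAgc
Over wider windows of 300 bases, the AP-1 motif TGANTCA stood in 8.44% of the windows of DEGs higher in brain, 7.94% of those lower, 5.28% of all genes tested and 7.81% of all windows. The core of the PU.1 element, GAGGAA, stood in 28.0%, 28.3%, 27.2% and 28.3% in that order, and AGATAA, bound by GATA factors, in 7.19%, 9.52%, 6.70% and 11.2%. The E-box CACGTG stood in 10.5%, 8.39%, 9.93% and 7.15%, the hypoxia core ACGTG in 23.1%, 22.2%, 25.5% and 19.6%, and the interferon-stimulated response element in 2.97%, 4.54%, 3.41% and 3.44%. These shares are descriptions, and no test was run on them.

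Growth factor genes were higher in brain in 12 of 18 cases and lower in none. *Igf1*, insulin-like growth factor 1, had 0.0973, 0.141 and 0 CPM in sham blood and 19.7, 11.7 and 26.4 CPM in brain (log2 fold change 7.65 ± 0.63 (SE), adjusted p = 0.000515). *Gdf15* had 0.0486, 0.094 and 0.0541 CPM in sham blood and 17.3, 18.5 and 14.7 CPM in brain (log2 fold change 7.75 ± 0.38 (SE), adjusted p = 0.000141), with close brain replicates. *Vegfa*, the endothelial growth factor, had 0.584, 0.188 and 0 CPM in sham blood and 242, 16.7 and 15.6 CPM in brain, so that stroke brain replicate 1 was more than 14 times the other brain libraries (log2 fold change 8.27 ± 1.54 (SE), adjusted p = 0.0105). *Grn* (0.23 ± 0.19) and *Hgf* (0.76 ± 0.27) were not DEGs.

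Matrix genes and the enzymes that cut matrix gave 15 DEGs higher and 2 lower of 20 tested, with 10 to 16 higher in the fits without 1 library. *Thbs1*, thrombospondin 1, had 473, 326 and 220.4 CPM in sham blood and 3299, 1933 and 1486 CPM in brain (log2 fold change 2.59 ± 0.37 (SE), adjusted p = 0.00417). *Mmp14*, a membrane-bound metalloprotease, had 0.535, 1.41 and 4.65 CPM in sham blood and 92.0, 145 and 117 CPM in brain (log2 fold change 5.64 ± 0.68 (SE), adjusted p = 0.00225), and its inhibitor *Timp1* had 0.973, 0.282 and 0.108 CPM in sham blood and 26.2, 17.8 and 18.0 CPM in brain (log2 fold change 5.34 ± 0.62 (SE), adjusted p = 0.00187). *Tgm2*, a transglutaminase that crosslinks proteins, had 34.2, 39.2 and 12.7 CPM in sham blood and 740.0, 841 and 615 CPM in brain (log2 fold change 4.56 ± 0.42 (SE), adjusted p = 0.000748). The 2 that fell were *Fn1*, described among monocyte genes, and *Mmp8*, a collagenase of neutrophils and monocytes (log2 fold change -2.64 ± 0.37 (SE), adjusted p = 0.00392). *Mmp9* (10.3, 23.2 and 48.3 CPM in sham blood and 14.7, 95.4 and 88.6 CPM in brain) overlapped and was not a DEG.

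Arginine and alternative activation genes did not move as one. *Arg1*, arginase, had 0.341, 0.047 and 0.108 CPM in sham blood and 61.1, 58.1 and 73.0 CPM in brain (log2 fold change 8.42 ± 0.45 (SE), adjusted p = 0.000141), and *Chil3* fell as given above, although both are widely used as markers of alternative activation. Of 15 genes 7 rose and *Chil3* was the 1 that fell. *Retnla* had 0.924, 0.141 and 1.79 CPM in sham blood and 1.01, 11.5 and 4.63 CPM in brain and was not a DEG, and *Nos2*, the inducible nitric oxide synthase, stayed at or below 0.648 CPM in every library.

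Of 20 adhesion and homing genes 4 fell, among them *Itga1*, *S1pr4* and *Klf2*. The 2 that rose, a share near the 9.75% of all genes tested that were called higher, were *Itgav* (1.13 ± 0.16) and *Itgb5*, which together form an integrin that binds matrix and apoptotic cell bridges. The call of *Itga1* was lost without sham blood replicate 3 (adjusted p = 0.0508), that of *S1pr4* without sham blood replicate 2 (adjusted p = 0.0539), sham blood replicate 3 (adjusted p = 0.0527) or stroke brain replicate 2 (adjusted p = 0.0549), and that of *Klf2* without sham blood replicate 2 (adjusted p = 0.118), sham blood replicate 3 (adjusted p = 0.103), stroke brain replicate 2 (adjusted p = 0.11) or stroke brain replicate 3 (adjusted p = 0.123). The number that fell was 1 of 20 without sham blood replicate 3, near the 3.67% of all genes tested that were called lower, and 2 without sham blood replicate 2 or stroke brain replicate 2. *Itgb2* and *Itgal*, which form an integrin that leukocytes use on vessel walls, had log2 fold changes of -0.22 ± 0.14 and -0.23 ± 0.15. Among pattern receptors 9 of 25 rose, including *Trem1* (2.89 ± 0.51), *Clec4n* (2.01 ± 0.28) and *Tlr3* (2.29 ± 0.31), and *Tlr8* (-1.17 ± 0.18) and *Tlr6* (-1.05 ± 0.23) fell, the call of *Tlr6* being lost without sham blood replicate 3 (log2 fold change -0.93, adjusted p = 0.064) or stroke brain replicate 1 (log2 fold change -0.89, adjusted p = 0.0316).

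Proliferation genes were higher in brain at low levels. Of 24 genes of DNA replication and mitosis 16 were DEGs higher in brain and none was lower, with a median log2 fold change of 1.58. *Stmn1*, a microtubule regulator, had 5.89, 5.92 and 7.04 CPM in sham blood and 35.5, 37.6 and 27.3 CPM in brain (log2 fold change 2.29 ± 0.21 (SE), adjusted p = 0.00075). *Mcm6*, a subunit of the replicative helicase, had 19.1, 22.4 and 18.7 CPM in sham blood and 65.3, 53.2 and 59.9 CPM in brain (log2 fold change 1.44 ± 0.16 (SE), adjusted p = 0.00147). *Mki67*, the usual marker of cycling cells, had 5.11, 5.36 and 4.87 CPM in sham blood and 20.2, 11.5 and 8.84 CPM in brain (log2 fold change 1.27 ± 0.33 (SE), adjusted p = 0.0332), a call lost without sham blood replicate 1 (adjusted p = 0.0744), sham blood replicate 2 (adjusted p = 0.0942), sham blood replicate 3 (adjusted p = 0.101), stroke brain replicate 1 (log2 fold change 0.88, adjusted p = 0.0546) or stroke brain replicate 2 (adjusted p = 0.065). The count was 7 without sham blood replicate 2 and 10 without sham blood replicate 3. Share of cycling cells and RNA per cell were not measured.

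Several programs gave few or no DEGs. Over all genes tested, 9.75% were called higher in brain and 3.67% lower. None of 24 type I interferon response genes was a DEG in edgeR, with 3 higher and 2 lower at an unadjusted p below 0.05 and 3 higher by DESeq2. None of 22 oxidative phosphorylation genes was a DEG, with 0 higher and 8 lower at an unadjusted p below 0.05 and none by DESeq2. Their median log2 fold change was -0.27, and 5 of them had an adjusted p below 0.05 with a fold change under the threshold. In the list of glycolysis and hypoxia genes 3 of 24 rose, *Pfkfb3* (25.0, 28.7 and 19.8 CPM in sham blood and 103, 93.8 and 96.2 CPM in brain, log2 fold change 1.88 ± 0.17 (SE), adjusted p = 0.000683), *Egln3* and *Vegfa*, and *Ndrg1* fell (log2 fold change -2.29 ± 0.37 (SE), adjusted p = 0.00647). Both counts of this list were near the shares over all genes tested. Of the enzymes, *Eno1* was not a DEG (-0.19 ± 0.14). Of 16 heme and iron genes *Fth1*, *Cd163* and *Tfrc*, the transferrin receptor, rose, and 1 rose without sham blood replicate 3 or stroke brain replicate 2 (*Tfrc* adjusted p = 0.0526 and 0.065). *Fth1*, the ferritin heavy chain, had 3582, 2898 and 3006 CPM in sham blood and 8043, 8092 and 6996 CPM in brain (log2 fold change 1.16 ± 0.15 (SE), adjusted p = 0.00328), while *Hmox1*, heme oxygenase 1, was not a DEG (0.22 ± 0.20). Of 15 antioxidant genes 4 rose, *Mt1* (1.55 ± 0.29), *Sqstm1*, *Gclc* and *Srxn1*, and 1 without sham blood replicate 3 or stroke brain replicate 2. The calls of *Sqstm1* and *Srxn1* were also lost without sham blood replicate 1, that of *Srxn1* without sham blood replicate 2, and that of *Gclc* without stroke brain replicate 1 or 3. A count of 1 in the heme and iron list or the antioxidant list lay below the share of all genes tested that were called higher.

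**Figure D5:**
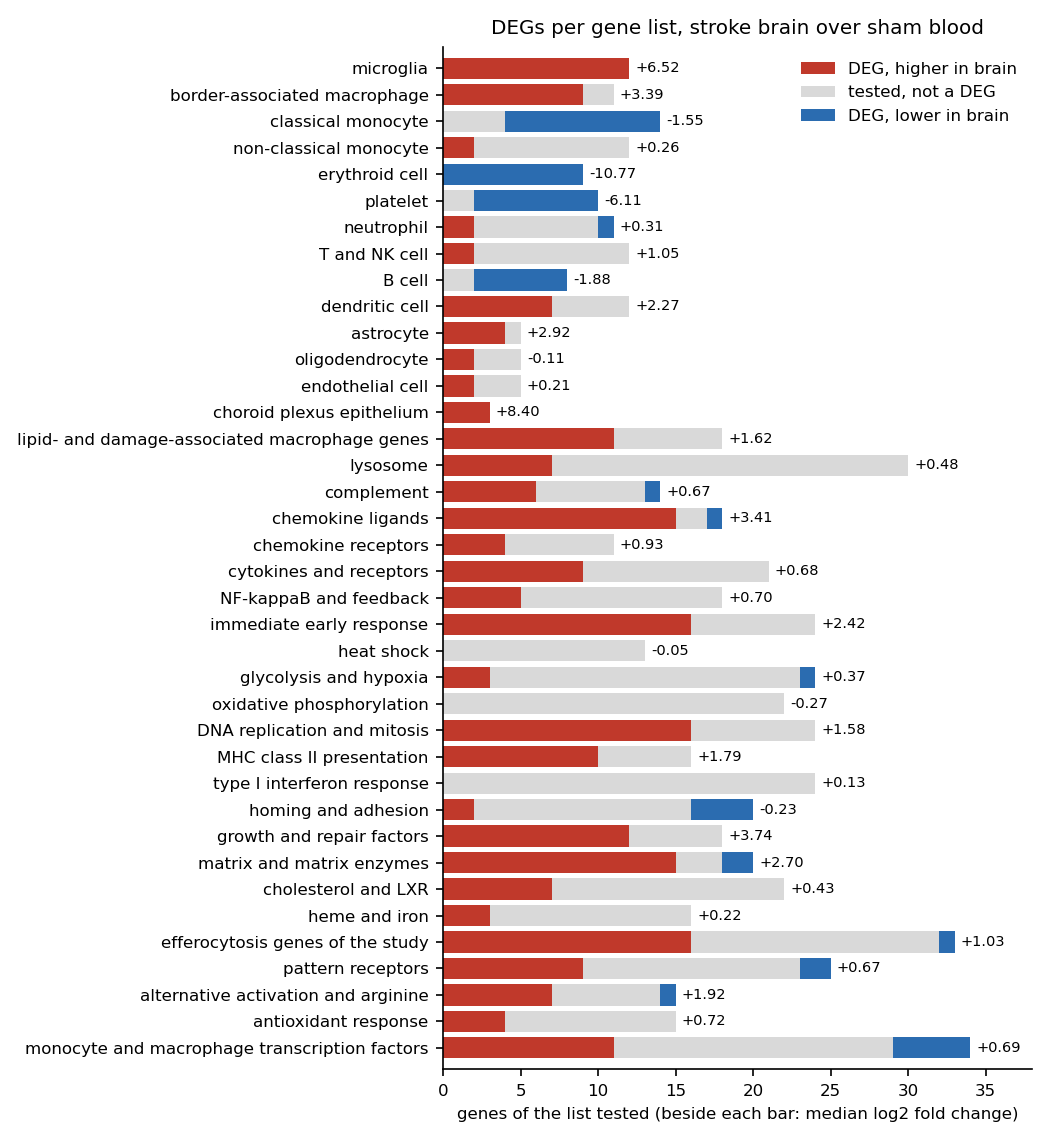
Each bar is 1 gene list with its length the number of genes tested, split into DEGs higher in brain (red), genes that were not DEGs (gray) and DEGs lower in brain (blue), and the median log2 fold change stands beside it, genes at 0 in a group set at their bound. Microglia (12 of 12), chemokine ligands (15 of 18) and matrix genes (15 of 20) are mostly red, classical monocyte (10 of 14) and erythroid (9 of 9) genes mostly blue.

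By class of transcript, 7 of 16 mitochondrial genes were DEGs lower in brain (median log2 fold change -1.30) and none was higher. Mitochondrial genes took 0.837 to 1.23% of counts in sham blood and 0.379 to 0.727% in brain. Of 76 cytosolic ribosomal protein genes 3 were lower, with a median of -0.67. That is 3.95% of them, near the 3.67% of all genes tested that were called lower. Of 55 immunoglobulin gene segments 11 (20%) were lower.

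For 3 of these genes the level in stroke blood, taken 5 days after dMCAO from 1 mouse per library, is set beside the tested groups, as values chosen after the data were seen and with no test. *Thbs1* was at 51.4, 74.2 and 47.8 CPM in stroke blood, below every sham blood library as well as every brain library. *Spp1* was at 1.11, 1.72 and 0.648 CPM in stroke blood, and *Chil3* at 6052, 5779 and 3933 CPM, with sham blood at 6500.3, 10107 and 22681 CPM.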

How the data were processed

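RNA was measured in 9 libraries of sorted mouse cells, 3 per group, of which 6 were tested. Per the labels and the methods of the study, cDNA was made with the SMART-Seq HT kit and libraries with Nextera XT, which keep no strand, and sequenced as paired reads on a NextSeq 500. The authors aligned reads to GRCm38 with HISAT2 and made the counts with HTSeq; their versions are not given in the sources used here. The deposited files hold raw counts per Ensembl gene, without molecular identifiers, so floors and intervals cover counting error only. Genes of 53801 identifiers were compared with GENCODE M21, in which 53706 were found.

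CPM printed here are each gene's counts divided by the library's total and multiplied by 1e+06. Tests used edgeR 4.0.16 (quasi-likelihood, TMM normalization, filterByExpr) in R 4.3.3 on the 3 brain and 3 sham blood libraries, with no covariates. DEGs passed an absolute log2 fold change of 1 and an adjusted p of 0.05. Exact permutation of 3 against 3 libraries cannot give a two-sided p below 0.1, so single-gene permutation tests were not used. Replicates are separate mice or separate pools of 5 mice. Within each group, library pairs gave a chi-square statistic of 26.2 to 152 for each degree of freedom, well above counting error. On simulated counts with 200 changed genes among 12769 tested for brain versus sham blood, 196 (98%) were recovered, with 2 unchanged genes called. The simulation gave all genes the same dispersion, only large shifts and no library that stood apart. It checks that the procedure runs correctly and does not measure its recovery or false calls on the real libraries.

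Named genes are members of the gene lists, the 12 highest and 12 lowest log2 fold changes among DEGs with at least 10 counts in all 6 libraries and no overlap between the groups, the 12 most abundant DEGs with at most 3 counts in each library of the other group, and the 12 largest changes in CPM, each way. The comparison, members and lists were chosen with earlier results of these data known. Alternatives were DESeq2 1.42.0, other scalings and filters, erythroid genes left out, a replicate block and each library left out. Low levels were limited by a floor of 3 counts per library, 0.133 to 0.162 CPM, and ratios on 1 to 3 counts carry a 95% counting interval. Medians of lists set genes at 0 in every library of a group at that floor. The efferocytosis list was chosen by the study on these brain libraries. Promoter windows are from RefSeq (GRCm38.p6), with motifs chosen after values were seen. Some members of the lists are counted but not reported here by name. Figures were drawn with Python 3.11.15 and matplotlib 3.10.9.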

Additional observations from a re-analysis of the deposited data

How the results depend on the processing

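The direction of 141 named DEGs was the same under every alternative that gave a value for them, and 131 of them stayed DEGs wherever they had a value under the 7 alternatives that kept the 6 libraries (4 globin genes had none with erythroid genes left out, nor *Ch25h* and *Il10* at a mean of 50 counts). These were DESeq2, relative log expression (RLE) normalization, library size alone, all genes with a count kept, a filter at a mean of 50 counts, erythroid genes left out and the replicate block. In all 6 fits without 1 library, 113 stayed DEGs. With 1 library left out, DEGs numbered 1146 to 1883, with 869 to 1214 higher and 277 to 669 lower in brain. With sham blood replicate 1 and stroke brain replicate 1 both left out, chosen after seeing the data, there were 2101 DEGs, of which 748 were lower. An adjusted p below 0.01 left 792 DEGs, 610 higher and 182 lower, and without the fold threshold 1000 genes were lower. DESeq2 gave 2162 DEGs. Scaling by library size alone moved the median log2 fold change of all genes to 0.13 and the split to 1439 higher and 353 lower (80.3% higher, against 72.7%). Principal component 1 held 65.7% of variance over all genes tested and 84.7% after a variance-stabilizing transformation. The causes of these changes were not tested.

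Log2 fold changes near 0 changed sign for genes that were not DEGs. For *Spi1* the value was -0.0029 with DESeq2 or RLE normalization, -0.0096 without the filter, and -0.063 to 0.083 with libraries left out. For *Lgals3* it was 0.10 by library size alone and -0.096 to 0.046 with libraries left out. For *Irf8* it was -0.067 to 0.25 with libraries left out. For *Pf4* it was -1.04 without sham blood replicate 1 and 0.31 without sham blood replicate 3.

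The deviations of same-numbered libraries from their group means correlated at 0.059, -0.027 and 0.035. The labels do not say whether a shared number marks a shared batch, and so few libraries cannot settle it. With the replicate number as a block, 1571 genes were DEGs, 1150 higher and 421 lower, 7 of the named DEGs lost their call, and *Pf4* had a log2 fold change of 0.26.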

Other observations

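Sham blood replicate 1, low in erythroid and platelet RNA, was also low in a few abundant genes of other kinds, chosen here after their values were seen. *Lamp1* was at 191, 1390.1 and 799.6 CPM in the 3 sham blood libraries, at 309, 199.8 and 421 CPM in stroke blood and at 1137, 1181 and 1242 CPM in brain. *Rac1* was at 70.7, 759.8 and 396 CPM in sham blood, at 122, 76.4 and 169 CPM in stroke blood and at 632, 629 and 649 CPM in brain. Sham blood replicate 1 thus lay nearer to the stroke blood libraries than to the other sham blood libraries for both genes.

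Stroke brain replicate 1 differed from the other brain pools in several genes at once. It was the highest in *Vegfa*, *Nr4a1* and *Spp1* and the lowest in *Ctsk*, *Mrc1*, *Cd163* and *Tmem119*. The parts of the pooled mice and of the handling in this difference were not tested.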
